A study of Mus musculus with 2 samples.

Results

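Genes that hold back ERK signalling, or report on it, were examined in mouse cardiac myofibroblasts after knockdown of *Vgll3*. The set comprised 10 genes of the 24532 in the deposited count table and was taken by gene symbol. They were the MAP kinase phosphatases *Dusp1*, *Dusp4*, *Dusp5* and *Dusp6*, the Sprouty and SPRED genes *Spry1*, *Spry2*, *Spry4* and *Spred1*, and the ETS factor genes *Etv4* and *Etv5*. All 10 were found in the count table and in both tables of transcript levels.

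The cells came from infarcted hearts of C57BL/6 mice (C57BL/6J in the methods of the study) 3 days after myocardial infarction, were left to attach to plastic and were then sorted as CD45-negative cells. They were transfected with 12.5 nM of a control siRNA (siCtrl) or of an siRNA against *Vgll3*, a cofactor of TEAD transcription factors (si*Vgll3*), and RNA was taken 72 h later. Both groups shared the transfection reagent, the medium with serum and the plastic. The knockdown rests on a single siRNA sequence and the deposited data hold 1 library per condition. The difference therefore has no replicate check, no p-value is given, and the siRNA cannot be told apart from a difference between the cultures.

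Reads counted on genes came to 140815237 for siCtrl and 125789276 for si*Vgll3*. Levels are given as TPM, which scales reads for transcript length and library size. *Vgll3* itself was at 202 TPM with siCtrl and 84.0 TPM with si*Vgll3*, or 41.6% of the control level, and its M (si*Vgll3* over siCtrl as a log2 ratio) was −1.27. The myofibroblast and fibroblast markers all had reads, and the 10 of them summed to 21439 TPM with siCtrl and 19871 TPM with si*Vgll3*. They went in both directions, from *Postn* with an M of −1.22 to *Thy1* with an M of 0.72. Of the 10 leukocyte markers, 4 had 0 reads in both libraries, *Ptprc* (CD45) and *Adgre1* among them, and the list summed to 15.8 and 14.5 TPM. Its other members went in both directions, with *Cd53* at 136 and 979 reads (M of 2.96) and *Lyz2* at 738 and 196 reads (M of −1.80). The 8 endothelial markers all had reads and summed to 27.3 and 24.0 TPM. *Tek* carried most of that sum, at 19.5 and 13.4 TPM (M of −0.54), and *Vwf* had an M of −0.51. *Cldn5* (11 and 94 reads, M of 3.34), *Kdr* (0.97), *Cdh5* (0.50) and *Pecam1* (0.47) went the other way. *Emcn* and *Tie1* lay at −0.02 and −0.04. The 8 cardiomyocyte markers summed to 60.05 and 10.4 TPM, all of it *Tnnt2* to the digits given, whose M was −2.53, and 6 of them, *Myh6* and *Myl2* among them, had 0 reads in both libraries. The 6 smooth muscle and pericyte markers summed to 16.2 and 9.51 TPM. *Notch3* carried most of that sum, at 14.1 and 7.97 TPM (M of −0.82). *Myh11* (−1.43), *Cspg4* (−0.34) and *Rgs5* (−0.21) also had M below 0. *Abcc9* (6 and 20 reads, M of 1.80) and *Kcnj8* (0 and 24 reads) went the other way. The part of these other cells in the results below was not tested.

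ERK is the last kinase of a cascade that runs from growth factor receptors through RAS, RAF and MEK. Active ERK switches on genes whose products then shut the cascade down, so their mRNA levels are widely read as a trace of recent ERK activity. The MAP kinase phosphatases remove phosphate from the activation loop of ERK and its relatives p38 and JNK. Sprouty and SPRED proteins act higher up, at the receptor, RAS and RAF steps. ETV4 and ETV5 belong to the PEA3 group of ETS transcription factors and carry the signal of fibroblast and epidermal growth factors to their target genes. In heart fibroblasts this pathway is known for driving proliferation and wound repair.

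Promoter sequences were looked up first, since genes of this set are textbook targets of CREB, SRF and ETS factors. TEAD was included as a known partner of VGLL3. The study found that siRNA against *Tead1* left fibrotic genes of these cells unaffected. It proposes that TEAD1 has no part in the fibrotic pathway of VGLL3. RefSeq promoters on GRCm38.p6, from 250 bases before to 50 bases after the start site, were matched for 7 of the 10 genes, in 8 windows because *Etv5* has a pair of start sites. Those without an entry were *Dusp4*, *Spry4* and *Etv4*. The motifs searched on both strands were TGACGTCA (the cyclic AMP response element, CRE), TGACTCA and its reverse complement TGAGTCA (AP-1), CCGGAAGT and CAGGAAGT (ETS), GGAATG (TEAD) and the SRF-binding CArG box. Motif matches were found in 3 of the members' genes, and their windows are printed below with the matches in capitals, 5′ to 3′ on the strand of the gene. *Dusp1* (chr17:26508423-26508722, minus strand) is shown because it was the member furthest above the control and because it holds a full CRE. *Dusp5* (chr19:53528895-53529194, plus strand) holds a pair of CArG boxes side by side. *Spry1* (chr3:37639697-37639996, plus strand) is the most abundant member and holds the TEAD letters.
Dusp1: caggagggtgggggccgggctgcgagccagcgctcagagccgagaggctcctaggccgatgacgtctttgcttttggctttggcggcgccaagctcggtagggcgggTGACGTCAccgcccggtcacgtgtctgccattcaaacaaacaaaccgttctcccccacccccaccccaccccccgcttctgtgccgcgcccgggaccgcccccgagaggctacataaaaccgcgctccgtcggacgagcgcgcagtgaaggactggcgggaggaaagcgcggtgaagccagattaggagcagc
Dusp5: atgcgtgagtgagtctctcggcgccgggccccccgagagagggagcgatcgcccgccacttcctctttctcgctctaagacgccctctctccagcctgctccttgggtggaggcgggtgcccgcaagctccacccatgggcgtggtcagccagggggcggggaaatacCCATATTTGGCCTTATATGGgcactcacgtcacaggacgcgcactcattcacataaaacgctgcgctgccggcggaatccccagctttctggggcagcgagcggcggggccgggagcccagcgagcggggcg
Spry1: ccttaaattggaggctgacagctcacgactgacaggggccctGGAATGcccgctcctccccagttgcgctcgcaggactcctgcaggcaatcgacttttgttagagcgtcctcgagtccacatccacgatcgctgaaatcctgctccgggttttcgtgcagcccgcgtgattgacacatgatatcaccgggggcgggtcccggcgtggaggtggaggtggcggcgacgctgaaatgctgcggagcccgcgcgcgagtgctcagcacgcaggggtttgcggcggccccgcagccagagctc

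Positions count from the RefSeq start site of each window, which for these genes differs from the GENCODE transcript start used further below. The CRE of *Dusp1* lay from −143 to −136 relative to the RefSeq start site, and 1.79% of the 32851 RefSeq promoter windows of the mouse held one. The CArG boxes of *Dusp5* lay from −82 to −73 and from −72 to −63, and 1.63% of all windows held such a box. The TEAD letters of *Spry1* lay from −208 to −203, and 14.7% of all windows held them. The AP-1 letters, present in 5.20% of all windows, and the ETS letters CCGGAAGT and CAGGAAGT, present in 3.89% and 3.33%, were in none of the 8 windows. A match is a description of the letters in these windows. The members' windows were rich in G and C, at 57.3% to 74.0% against a median of 52.7% over all windows.

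The members were well expressed in both libraries, as the plot of levels shows. In siCtrl, *Spry1* stood far above the others at 209.6 TPM, followed by *Spry2* at 83.1, *Spred1* at 52.5, *Dusp4* at 49.3 and *Dusp1* at 42.9 TPM. The lower part of the order was *Etv5* at 27.8, *Dusp6* at 24.2, *Etv4* at 22.6, *Spry4* at 14.3 and *Dusp5* at 10.05 TPM. No neighbours in this order had overlapping counting intervals. These are exact Poisson intervals at 95%, they cover counting error only, and no replicate spread was available. In si*Vgll3* the order changed in the middle, where *Dusp1* moved from the fifth place to the third and *Etv4* passed *Dusp6*. Every member had between 613 and 31364 reads in each library, so counting error was small. By mean level, *Dusp5* lay above 31.6% of all tested genes and *Spry1* above 92.6%, with the other members between them. In siCtrl, 741 reads of *Dusp5* went with 10.05 TPM and 31364 reads of *Spry1* with 209.6 TPM, on transcripts of 2473 and 2481 nt. The TPM of *Dusp5* is thus high for its reads. Its level, its rank among genes and its part in the phosphatase sum are uncertain, and the reason was not tested.

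**Figure D1:**
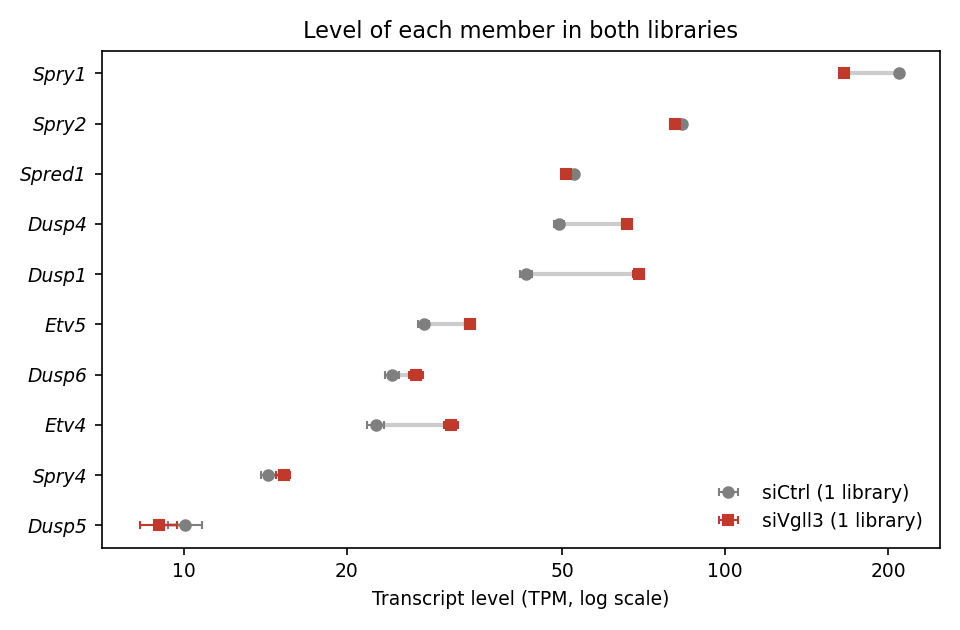
Level of each of the 10 members in TPM (log axis) in the siCtrl library (grey circles) and the si*Vgll3* library (red squares), with exact Poisson 95% intervals of the read count. On this log axis, which shows ratios, *Dusp1* has the widest gap, from 42.9 to 69.2 TPM, while *Spry2* and *Spred1* nearly coincide.

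The difference between the libraries was measured as M, the log2 ratio of TPM in si*Vgll3* to TPM in siCtrl, with A, the log2 of the mean TPM, above 0. All 10 members passed that filter on low values. A gene was called higher with M above 0.5 and lower with M below −0.5. Among all 11754 tested genes, 5.73% were called higher and 11.4% were called lower, with a median M of −0.05. Of the members, 1 was called higher, *Dusp1*, and 0 were called lower. A share of 1 in 10 genes is near the background and is no result about the set. The members' median M was 0.12, with 6 above 0 and 4 below, between −0.34 and 0.69. Over all tested genes 43.0% had M above 0. With CPM, which is scaled by library totals alone, 8 members were above 0, since *Spry2* and *Spred1* lay within 0.01 of 0 on the other side. In bulk RNA, more transcript per cell and more cells of an expressing kind cannot be told apart.

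**Figure D2:**
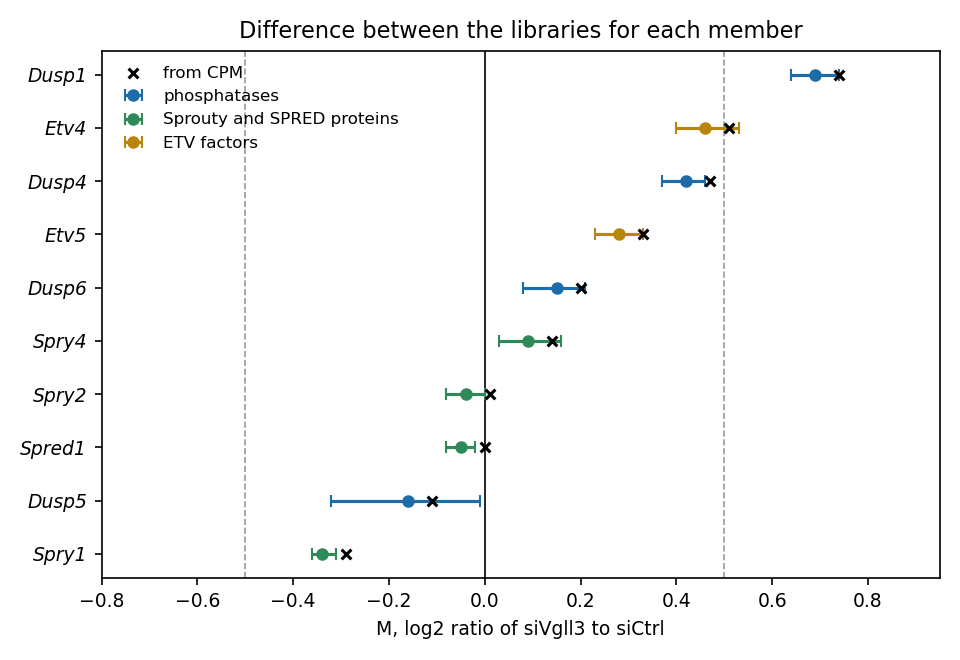
M of each member (log2 ratio of si*Vgll3* to siCtrl) with its Clopper-Pearson 95% counting interval, coloured by family, and M from CPM (read counts scaled by library totals alone) as crosses. The dashed lines mark −0.5 and 0.5. *Dusp1* alone lies past a line by TPM, at 0.69, and the cross of *Etv4* lies just past it, at 0.51.

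The phosphatases differed among themselves. *Dusp1* encodes an inducible nuclear phosphatase that acts on p38 and JNK as well as ERK. Its reads numbered 5316 with siCtrl and 7944 with si*Vgll3*, which is 42.9 and 69.2 TPM. The si*Vgll3* level was 161% of the siCtrl level, an M of 0.69 with a 95% counting interval from 0.64 to 0.74, and 405 tested genes (3.45%) had a higher M. *Dusp4*, another nuclear phosphatase, had a level of 49.3 TPM with siCtrl and 65.8 TPM with si*Vgll3*, with an M of 0.42 (0.37 to 0.46). It was higher in si*Vgll3* by more than counting error but remained under the threshold, where 7.32% of tested genes had a higher M.

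*Dusp6*, the cytoplasmic phosphatase that is specific for ERK, had a level of 24.2 TPM with siCtrl and 26.8 TPM with si*Vgll3*. Its M was 0.15 (0.08 to 0.21). *Dusp5*, the nuclear counterpart with the same preference for ERK, was at 10.05 and 8.98 TPM, with an M of −0.16 (−0.32 to −0.01) from 741 and 613 reads. The M of *Dusp1* exceeded that of *Dusp6* by 0.55 and that of *Dusp4* exceeded it by 0.27, in both cases with counting intervals that did not overlap. Summed over the 4 phosphatases, the level was 126 TPM with siCtrl and 171 TPM with si*Vgll3*, or 135% of the siCtrl sum.

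The Sprouty and SPRED genes showed another pattern. *Spry1*, the most abundant member in both libraries, had a level of 209.6 TPM with siCtrl and 166 TPM with si*Vgll3*. Its M of −0.34 (−0.36 to −0.31) was the lowest of the set, 79.1% of the siCtrl level was left, and 81.0% of tested genes had a higher M. *Spry2* was at 83.1 and 80.8 TPM, with an M of −0.04 (−0.08 to −0.00), and *Spred1*, whose product brings neurofibromin to RAS at the membrane, was at 52.5 and 50.8 TPM, with an M of −0.05 (−0.08 to −0.02). Both values lie at or next to the median of all tested genes, and by CPM they were 0.01 and 0.00. *Spry4* had a level of 14.3 TPM with siCtrl and 15.3 TPM with si*Vgll3*, an M of 0.09 (0.03 to 0.16). The M of *Spry1* was below that of *Spry2* by 0.30 on the log2 scale, more than counting error.

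The 4 Sprouty and SPRED genes summed to 359.6 TPM with siCtrl and 313 TPM with si*Vgll3*, or 87.0% of the siCtrl sum. The log2 ratio of the sums was −0.20 by TPM, but −0.11 by CPM and −0.12 after TMM or DESeq2 scaling. *Spry1* made up 58.3% of that sum in siCtrl and 53.1% in si*Vgll3*. With *Spry1* left out, the log2 ratio by TPM was −0.03. Added over all 10 members, the level was similar in both libraries, at 536 and 548 TPM, with the phosphatase and ETV sums higher and the Sprouty and SPRED sum lower.

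Both ETV factor genes were higher in si*Vgll3* by more than counting error, as were 3807 of the 11754 tested genes. Neither reached the threshold by TPM. *Etv4* had a level of 22.6 TPM with siCtrl and 31.1 TPM with si*Vgll3*, an M of 0.46 (0.40 to 0.53) that lies closest of all members to the threshold. With M from CPM, *Etv4* was called, at 0.51. *Etv5* was at 27.8 and 33.7 TPM, an M of 0.28 (0.23 to 0.33). *Etv1*, the remaining PEA3 factor, had a level of 6.06 TPM with siCtrl and 5.65 TPM with si*Vgll3*, with an M of −0.10 (−0.20 to 0.00). The M of *Etv4* exceeded that of *Etv1* by 0.56, and their counting intervals did not overlap. The pair of ETV genes summed to 50.3 and 64.9 TPM, or 129% of the siCtrl sum.

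**Figure D3:**
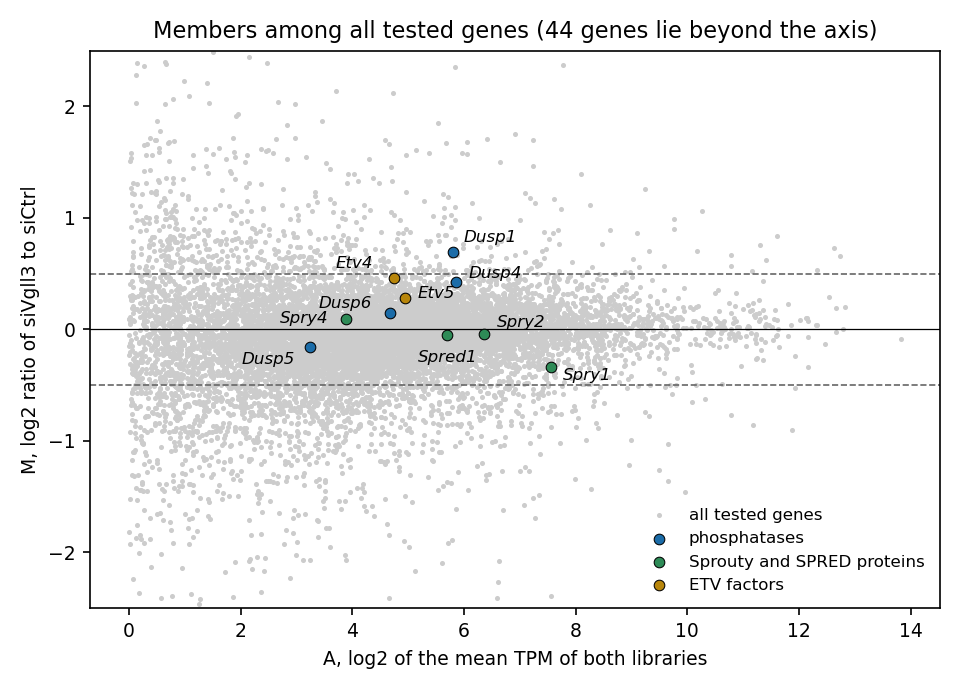
M (log2 ratio of si*Vgll3* to siCtrl) against A (log2 of the mean TPM) for all 11754 tested genes in grey, with the 10 members coloured by family. The dashed lines mark −0.5 and 0.5, and 44 genes lie beyond the axis. The members lie at A from 3.25 (*Dusp5*) to 7.55 (*Spry1*). *Dusp1* lies above the upper line, and *Spry1* has the lowest M of them, −0.34.

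Gene structure varied among the members. In the GENCODE vM21 annotation of GRCm38 (mm10), the transcript taken for each member is 1 of those the count table lists, and the median member had 4 exons and a span of 12.9 kb, against 9 exons and 22.7 kb over tested genes with a 3′ UTR. Exon number ran from 2 in *Spry2* and *Spry4* to 13 in *Etv4* and *Etv5*, and the span from 2.93 kb in *Dusp1* to 58.4 kb in *Etv5* and 60.9 kb in *Spred1*. *Dusp1* (NCBI gene 19252) lies on chromosome 17 from 26505590 to 26508519 on the minus strand, with 4 exons. *Spry1* (NCBI gene 24063) lies on chromosome 3 from 37639958 to 37644598 on the plus strand, with 3 exons, and *Etv4* (NCBI gene 18612) on chromosome 11 from 101769747 to 101785371 on the minus strand, with 13 exons. Each member is on a chromosome of its own. The annotation places another gene on the opposite strand over 3 members, *Spry1*, *Spry4* and *Dusp5*, and whether the counting used strand is not given in the sources used here.

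The rest of the pathway was taken from 9 lists with 122 other genes, of which 121 were in the count table and 113 were tested. Of these, 17 were called higher (15%) and 8 were called lower (7.08%), beside 5.73% and 11.4% of all tested genes. The latter are also the shares to set beside each list below. Of the 17, 7 were in the list of other ERK output genes. All lists were compiled with earlier results of these libraries known, so the shares are a description and no test of enrichment. Among the other MAP kinase phosphatases, 2 of 5 tested genes were called higher and 0 lower, with a median M of 0.44. *Dusp10*, whose product acts on p38 and JNK, had a level of 5.44 TPM with siCtrl and 9.90 TPM with si*Vgll3*, an M of 0.86 (0.75 to 0.98). *Dusp9* was scarce, at 0.426 and 1.74 TPM from 74 and 279 reads, an M of 2.03 (1.66 to 2.42). *Dusp16*, another phosphatase for JNK and p38, was at 19.9 and 23.2 TPM, an M of 0.22, the highest mean level of the list. *Dusp7* was at 20.7 and 20.4 TPM, an M of −0.02. The SPRED genes outside the set, *Spred2* and *Spred3*, had M of 0.04 and 0.33.

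The kinases and adaptors that carry the signal had a median M of −0.08 over 29 genes, with 2 called lower and 0 higher. *Mapk3* (ERK1), the most abundant, had a level of 281 TPM with siCtrl and 253 TPM with si*Vgll3*, an M of −0.15. *Ptpn11* stood apart. It encodes the phosphatase SHP2, which relays signals from receptors to RAS, and it had a level of 119.5 TPM with siCtrl and 48.3 TPM with si*Vgll3*. Its M of −1.31 (−1.33 to −1.28) was as low as that of the targeted gene *Vgll3*, at −1.27 (−1.29 to −1.24). *Ksr1*, a scaffold for RAF, MEK and ERK, was the other gene called lower, at 16.5 and 10.9 TPM with an M of −0.61 (−0.67 to −0.55).

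Other negative regulators of receptors and RAS had a median M of −0.02 over 14 genes, with 3 called lower and 0 higher. *Il17rd*, which encodes the feedback inhibitor SEF of fibroblast growth factor signalling, had a level of 2.78 TPM with siCtrl and 1.08 TPM with si*Vgll3*, an M of −1.36 (−1.51 to −1.22). *Lrig3* had an M of −0.71 and *Rasa3*, a RAS GTPase-activating protein gene, had an M of −0.58. *Pebp1*, the most abundant of the list, was at 413 and 472 TPM, an M of 0.19. The M of these inhibitors and of the members together ran in both directions, from *Dusp1* at 0.69 to *Il17rd* at −1.36.

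Genes that ERK is known to induce were split by kind. Among immediate-early genes, 5 of 19 tested genes were called higher and 2 lower, with a median M of 0.15. *Ier3* had the highest M of them, with a counting interval from 1.45 to 1.56, at 52.6 TPM with siCtrl and 149 TPM with si*Vgll3*. *Fosl1* was at 21.9 and 40.9 TPM (0.90), *Fos* at 14.6 and 23.4 TPM (0.68), *Nr4a2* at 4.53 and 6.66 TPM (0.56) and *Ier5* at 32.8 and 47.3 TPM (0.53), with M in parentheses. *Egr1*, the classical target of SRF and ETS factors downstream of ERK, went the other way, at 40.1 and 28.0 TPM with an M of −0.52, and *Egr3* had an M of −0.68. *Junb*, the most abundant, had an M of 0.24. By CPM, *Egr1* was at −0.47 and no longer called.

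Among the other ERK output genes, 7 of 13 were called higher (53.8%) and 0 lower, and the median M was 0.62 beside −0.05 over all tested genes. Among them were *Hmga1* (M of 1.53), *Hmga2* (1.21), *Tfpi2* (1.12), *Ccnd1* (0.98), *Plaur* (0.79) and *Phlda1* (0.66). *Ccnd1*, which encodes cyclin D1, had a level of 86.5 TPM with siCtrl and 170.4 TPM with si*Vgll3*. These genes respond to other signals than ERK as well, and the list was compiled with earlier results of these libraries known.

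**Figure D4:**
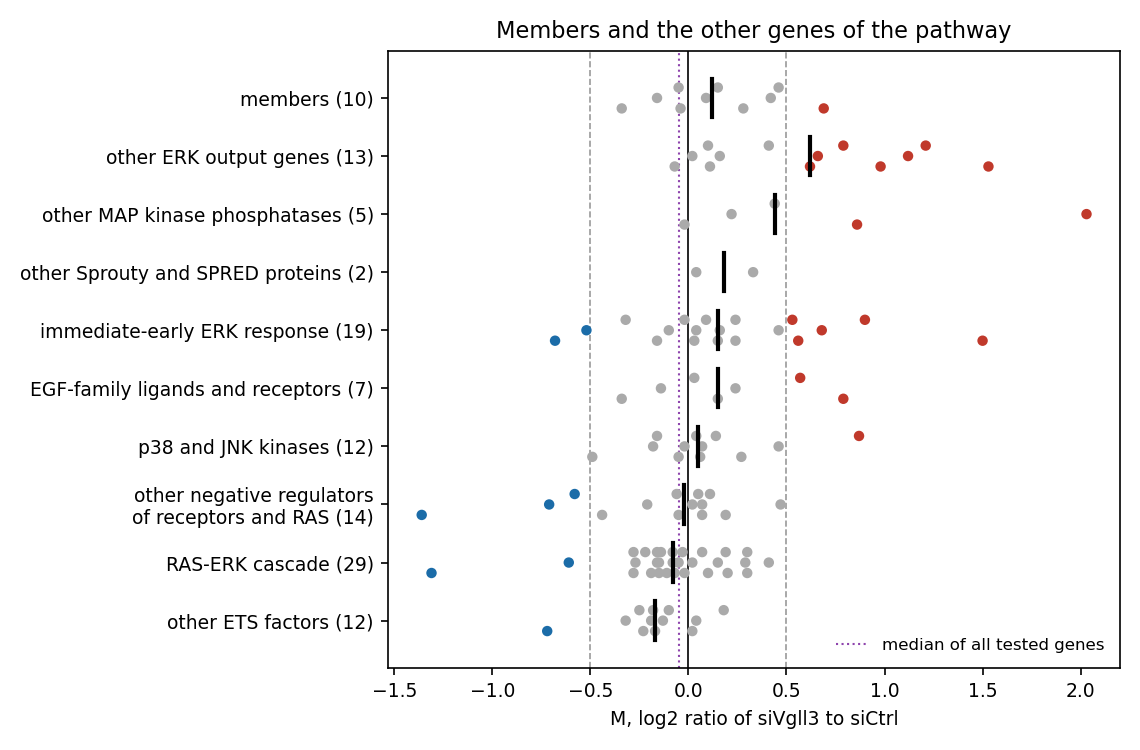
M (log2 ratio of si*Vgll3* to siCtrl) of each tested gene of the set and of the 9 pathway lists, with the number of genes in parentheses. Red points lie above 0.5, blue points below −0.5, black bars are medians and the dotted line is the median of all tested genes, −0.05. The other ERK output genes have the highest median, 0.62, and the other ETS factors the lowest, −0.17.

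Upstream, among the ligands and receptors of the epidermal growth factor family, 2 of 7 tested genes were called higher and 0 lower, with a median M of 0.15. *Hbegf* had a level of 30.7 TPM with siCtrl and 53.0 TPM with si*Vgll3*, an M of 0.79 (0.73 to 0.84), and *Ereg* was at 37.9 and 56.4 TPM, an M of 0.57 (0.54 to 0.61). Their receptor gene *Egfr* had an M of 0.24 (0.19 to 0.28). Other receptor genes went the other way. *Erbb2* was at 15 and 11.9 TPM, an M of −0.34 (−0.40 to −0.27). *Erbb3*, which did not pass the filter on A, had 71 reads with siCtrl and 12 with si*Vgll3*. Among 12 p38 and JNK pathway kinases, 1 was called higher and 0 lower, with a median of 0.05. It was *Map2k7*, which encodes an activator of JNK, at 16.1 and 29.4 TPM with an M of 0.87, while *Mapkapk2*, the most abundant, had an M of −0.02. The other ETS factors had a median of −0.17 over 12 genes, with *Fli1* called lower at an M of −0.72, 0 called higher and *Erf*, the most abundant, at 0.02.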

How the data were processed

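RNA of 1 siCtrl and 1 si*Vgll3* culture was sequenced by the authors with a stranded TruSeq mRNA kit on a NovaSeq instrument. Per the submitters' notes and methods, reads were checked with FastQC, trimmed with Trimmomatic, mapped to mm10 with HISAT2 and assigned to known genes with StringTie, with versions not given in the sources used here. The authors deposited raw read counts per gene, with no normalization, and TPM per gene, scaled by them for transcript length and library size. Totals were 140815237 and 125789276 reads.

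M and A were computed from the deposited TPM with nothing added, with numpy 2.4.6 and pandas 2.3.3. The interval of M is the 95% Clopper-Pearson interval of the count ratio (scipy 1.17.1), moved onto the TPM ratio. Sequenced reads are not independent molecules, so intervals cover counting error only. edgeR 4.0.16 and DESeq2 1.42.0 served for scaling alternatives only. The members and lists were chosen with earlier results of these data known. Named genes are all members, *Vgll3*, the cell type markers used as a check and, in each list, the genes past 0.5 in either direction and the most abundant gene, except that some genes of the lists, though counted in them, are not reported here by name. Others (*Dusp7*, *Etv1*, *Spred2*, *Spred3*, *Egfr*, *Erbb2*, *Erbb3*) were named after their values were seen, as close relatives of members or genes at the centre of the pathway. The MAPK activity panel and the 3′ UTR elements were also added after values were seen. The interval and the calls were tested on simulated counts that held counting error alone, with TPM taken from those same counts. Spread between cultures was not simulated, so that check does not cover it. Promoter sequences are from RefSeq (GRCm38.p6), and gene positions and 3′ UTRs from GENCODE vM21.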

Additional observations from a re-analysis of the deposited data

Results flagged for a closer look

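*Areg* (NCBI gene 11839), which encodes the epidermal growth factor receptor ligand amphiregulin, has no TPM listed and so entered no comparison, but it had 34 reads in si*Vgll3* and 2 in siCtrl. By CPM its log2 ratio was 4.25, with a 95% counting interval from 2.29 to 7.35. At 0.270 CPM in si*Vgll3* it was scarce, the ratio rests on 2 control reads, and the cause was not tested.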

How the results depend on the processing

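No paired analysis was possible because siCtrl and si*Vgll3* have 1 library each, and for the same reason no library could be left out. Under 6 alternatives of scaling, centring or added TPM, no member's M moved by more than 0.05, and 4 of 60 values changed sign before rounding, *Spry2* by CPM (0.01), TMM and centring and *Spred1* by CPM (0.00). *Dusp1* was called higher under each of the 6, between 0.68 and 0.74. *Etv4* crossed 0.5 with CPM, TMM-scaled counts, DESeq2 size factors and centred M, so 2 members were called higher under each of these 4, and with a threshold of 1 on M 0 members were. Over all genes, 393 were higher with A above 2, where 9938 were tested, and 442 when the whole interval had to lie beyond 0.5. Without a filter on A, 2103 were lower and 1428 higher of 14149; with at least 10 reads in each library, 1159 of 13492 were higher; and with a threshold of 1, 384 were lower and 207 higher.

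In the lists, A above 2 left 1 other MAP kinase phosphatase called higher. CPM, TMM-scaled counts, DESeq2 size factors and centred M each gave 1 higher gene among the other negative regulators and left 1 lower immediate-early gene. Centred M gave 2 higher p38 and JNK kinases, and no filter on A gave 1 lower gene in that list and 1 among the epidermal growth factor genes. The summed phosphatases had a log2 ratio of 0.43 by TPM, 0.48 by CPM, and 0.47 with TMM or DESeq2 scaling. The Sprouty and SPRED sum had −0.20 by TPM, −0.11 by CPM, −0.12 with TMM or DESeq2 scaling and −0.03 without *Spry1*. The ETV sum had 0.37 by TPM and 0.46 without *Etv5*. Limits are the single library per condition and, for *Dusp5* with 741 and 613 reads, a counting interval from −0.32 to −0.01.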

Other observations

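A panel of 10 transcripts that is in use as a readout of MAPK activity holds 6 of the members (*Dusp4*, *Dusp6*, *Spry2*, *Spry4*, *Etv4* and *Etv5*) with *Phlda1*, *Ccnd1*, *Epha2* and *Epha4*. All its genes were already counted above, as members or among the other ERK output genes. The panel was added after the values were seen and gets no test. In these libraries 9 of the 10 had M above 0, all except *Spry2* at −0.04, with a median of 0.35, and 2 were called higher, *Ccnd1* at 0.98 and *Phlda1* at 0.66. Over all tested genes 43.0% had M above 0 and 5.73% were called higher. By CPM *Spry2* was at 0.01, so that 10 of the 10 lay above 0. *Epha2* had a level of 31.0 TPM with siCtrl and 41.2 TPM with si*Vgll3*, an M of 0.41, and *Epha4* had an M of 0.10.

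Short-lived transcripts often carry AU-rich elements in the 3′ UTR, with the core letters ATTTA and, in a stricter form, TTATTTATT. *Dusp1* held 4 cores and 2 of the stricter elements in a 3′ UTR of 690 nt, or 5.80 cores per kb. It was the 1 member of 10 with the stricter element, which 7.42% of the 11001 tested genes with a 3′ UTR held. *Etv4* held 0 cores in 619 nt, and the members' median was 1.94 cores per kb beside 1.31 over those genes. RNA stability was not measured.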
